A study of Mus musculus with 2 samples.

Results

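The receptors for IL-1, IL-33, IL-36 and IL-18 are encoded side by side on mouse chromosome 1, and the open chromatin of that gene cluster was described in regulatory T cells. Open sites came from ATAC-seq, an assay in which the Tn5 transposase cuts accessible DNA. The cluster holds 6 genes, all on the plus strand, in the order Il1r2, Il1r1, Il1rl2, Il1rl1, Il18r1 and Il18rap. With 20 kb added on either side, the window ran over 517.6 kb at chr1:40054079-40571705 of mm10 (GRCm38.p6, genes from GENCODE M21). A peak belonged to the cluster when its summit, the base of highest signal, lay in that window, so position alone chose the peaks. The thresholded list, which keeps peaks that passed a limit on the irreproducible discovery rate (IDR), placed 13 of its 34610 peaks in the cluster. The longer and more permissive pseudoreplicated list placed 33 of its 58871 peaks there. The nearest thresholded summit outside the window lay 38 bp beyond its left edge, with a signal of 5.51.

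The cells were primary regulatory T cells of an adult male mouse aged 4 months. The strain is given as Foxp3CreERT2 x Rosa26YFP. In this cross the Foxp3 locus drives a tamoxifen-inducible Cre, the Rosa26 locus holds a YFP allele, and the labels name haematopoietic cells of bone marrow as the origin. How the cells were purified is not given in the sources used here. The 2 libraries are technical replicates from 1 biological replicate and form 1 group, and the authors' lists pool them, so each value below describes 1 sample and no test between groups was possible.

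Receptors of the IL-1 family are built from a ligand-binding chain and an accessory chain, whose cytoplasmic TIR domains recruit the adaptor MyD88 and, through IRAK kinases and TRAF6, activate NF-kB and MAP kinases. IL-1R1 is the signalling receptor for IL-1, whereas IL-1R2 lacks a signalling domain and acts as a decoy. IL-1RL2 binds IL-36, and IL-1RL1, also called ST2, binds IL-33. IL-18R1 binds IL-18 and signals with the accessory chain IL-18RAP. Regulatory T cells of adipose tissue, gut and muscle are known for carrying ST2, and IL-33 expands them. IL-18 is known to act on regulatory T cells through IL-18R1.

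The labelled cell type was checked on promoter peaks, meaning thresholded peaks that overlap the 1 kb on either side of a start site of any annotated transcript. All 5 regulatory T cell markers had one (Foxp3, Il2ra, Ctla4, Ikzf2 and Tnfrsf18, with signals of 2.69 to 9.67), as did all 4 T cell markers including Cd4, against 52.6% of all protein-coding genes. Markers of other cells that use these receptors were mostly without: 0 of 7 for mast cells or basophils, 0 of 8 for neutrophils or monocytes and 1 of 4 for NK cells (Eomes, signal 6.77). None of 4 B cell markers had one, and of the 2 CD8 T cell markers Cd8b1 did (10.7) while Cd8a had no summit in the gene or within 20 kb of it. In the pseudoreplicated list, Kit (mast cell), Klrb1c (NK cell) and Cd79b (B cell) also had a promoter peak. The part of other cells in the peaks of the receptor cluster was not tested.

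Open chromatin in the cluster was uneven. Of the 6 receptor genes, 4 had a promoter peak (Il1r2, Il1rl2, Il18r1 and Il18rap), against 52.6% of the 21938 protein-coding genes. Il1r1 and Il1rl1 had none, and with the pseudoreplicated list the count was again 4 of 6, against 57.7% of all protein-coding genes. Both shares are near those backgrounds, and 67.5% of the 4015 protein-coding genes as long as the receptor genes (35.3 to 92.2 kb) had a promoter peak. Il1r2 and Il18r1 each held 4 thresholded summits between gene start and end, and Il1rl2 held 1. Il1r1, Il1rl1 and Il18rap held none, a state shared by 60.8% of all protein-coding genes and by 41.8% of those in that range of lengths. In a pooled sample, a site open in few cells and a site weakly open in all cells cannot be told apart.

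**Figure D1:**
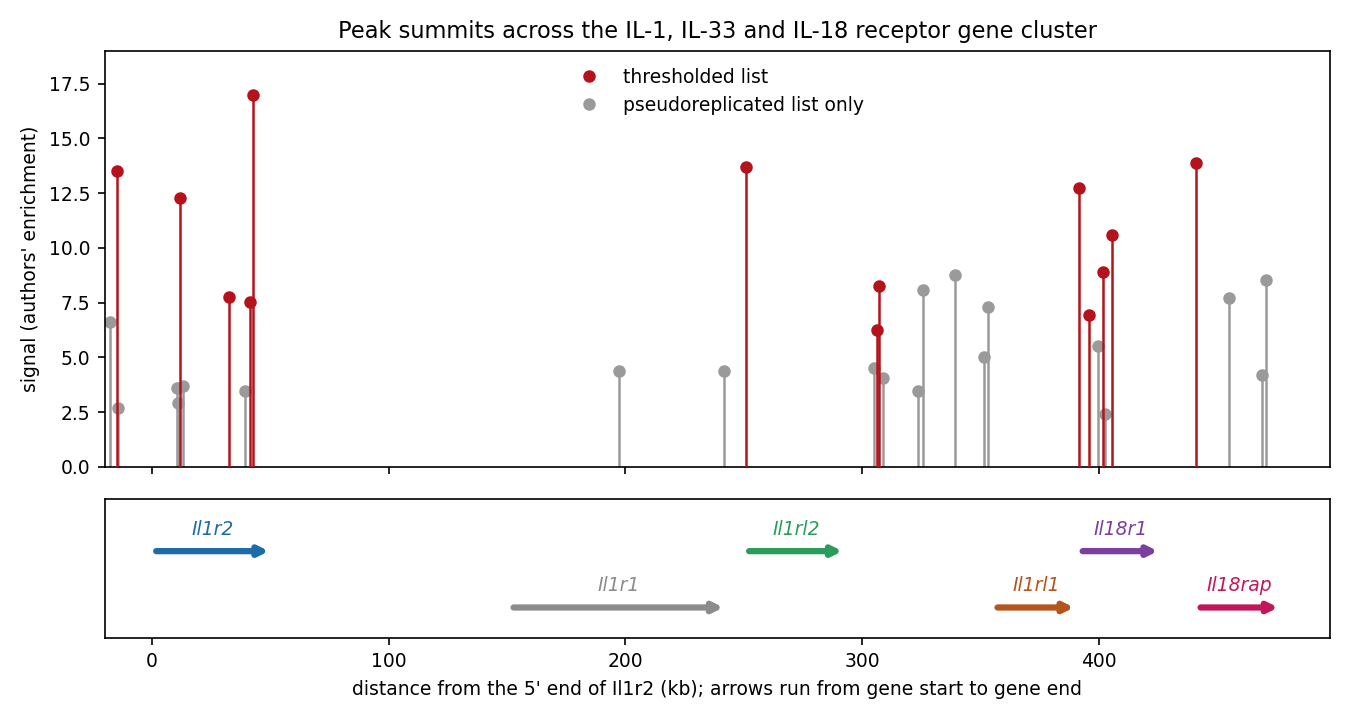
Peak summits along the receptor cluster. The upper panel gives the authors' signal of each summit against its distance from the 5′ end of Il1r2 in kb, with thresholded peaks in red and peaks of the pseudoreplicated list only in grey, and the lower panel shows the 6 genes as arrows from gene start to gene end. The 13 red summits gather at Il1r2, at the Il1rl2 promoter, between Il1rl2 and Il1rl1 and from Il18r1 to the Il18rap promoter, and none lies in Il1r1 or Il1rl1.

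Il1r1, the gene for the signalling IL-1 receptor (ENSMUSG00000026072.12, chr1:40225080-40317257), was the longest of the 6 at 92.2 kb and lay wholly inside a stretch without any thresholded summit. That stretch ran for 208.4 kb, between a summit in intron 5 of Il1r2 and the summit at the Il1rl2 promoter. It was longer than 94.7% of the 34589 distances between neighbouring thresholded summits in the genome, whose median was 15.5 kb. From the 3 annotated start sites of Il1r1, the nearest thresholded summit lay 58.4 to 99.9 kb away. The pseudoreplicated list added 2 weak peaks in the gene, each with a signal of 4.38 and a −log10 p of 9.12. One sat in intron 1, 4.69 kb downstream of a start site, and the other in exon 11, the last exon. The RefSeq promoter at the downstream start site of Il1r1, printed here as an IL-1 receptor promoter with no called peak, was GC-rich (63.3% GC, 14 CpG) and overlapped no peak of either list. In this and the following promoters the sequence runs 5′ to 3′ on the plus strand of GRCm38.p6 from 250 bases before to 50 bases after the start site. Capitals mark matches to ETS, RUNX, AP-1, GATA, NF-kB or STAT motifs, whose letters are given with the motif counts, and in this promoter they mark 1 NF-kB match.
Il1r1 promoter at the downstream start site (chr1:40266336-40266635): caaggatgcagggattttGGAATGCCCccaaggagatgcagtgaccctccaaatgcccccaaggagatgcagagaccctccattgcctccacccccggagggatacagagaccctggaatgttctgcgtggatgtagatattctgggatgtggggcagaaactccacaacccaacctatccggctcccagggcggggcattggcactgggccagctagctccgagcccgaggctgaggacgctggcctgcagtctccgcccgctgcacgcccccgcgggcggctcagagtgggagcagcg

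Il1r2, the gene for the decoy receptor (ENSMUSG00000026073.13, chr1:40074079-40125231), held 4 thresholded summits, which with the 4 of Il18r1 was the most of the 6. Its promoter peak at chr1:40085589-40086180 had a signal of 12.3, the lowest of the 4 promoter peaks, and the highest −log10 p of the cluster, 193. The 2 inputs to the authors' IDR comparison gave it −log10 p values of 101.5 and 93.0. The summit lay 33 bp upstream of a start site at position 40085985 inside the gene and 1.25 kb downstream of the principal start site at 40084698. The promoter peak begins within 1 kb of the principal start site but does not cover it. Only a peak of the pseudoreplicated list covered that start (signal 3.59, −log10 p 21.9), with its summit 50 bp upstream. The most upstream start of the gene record, at 40074079, lay 11.9 kb from the nearest thresholded summit. With the 5′ end of each gene record in place of every start site, Il1r2 therefore lost its promoter peak and 3 of 6 genes kept one. The summit also lay 101 bp from the start of Gm16894, an antisense transcript that runs the other way, and the peak cannot be assigned to either transcript. The RefSeq promoter of Il1r2 is shown because the summit falls in it, at base 110. Its capitals are a STAT match followed by a GATA match on the minus strand.
Il1r2 promoter (chr1:40085843-40086142): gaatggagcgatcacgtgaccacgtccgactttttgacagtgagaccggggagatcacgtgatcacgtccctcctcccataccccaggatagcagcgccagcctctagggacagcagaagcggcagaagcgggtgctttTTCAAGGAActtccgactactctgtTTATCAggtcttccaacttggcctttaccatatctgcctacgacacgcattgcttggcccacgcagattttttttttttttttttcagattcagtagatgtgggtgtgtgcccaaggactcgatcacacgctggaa

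Inside Il1r2, 3 intronic peaks lay 20.5 to 30.6 kb downstream of that start. The peak in intron 3, chr1:40106068-40107394, was the widest of the cluster at 1327 bp, held 4 listed summits and had a signal of 7.765. In intron 5, chr1:40115163-40115590 had a signal of 7.51, and chr1:40116325-40116769 had 17.0, the highest of the 13 and above 69.4% of all thresholded peaks. By −log10 p that last peak stood lower, at 88.7, above 40.5% of all thresholded peaks and below the 193 of the Il1r2 promoter peak. The intron 3 peak and the weaker intron 5 peak carried the lowest −log10 p values of the cluster (29.5 and 25.8), above only 4.455% and 2.16% of all thresholded peaks. Upstream of the gene, an intergenic peak at chr1:40059128-40059652 had a signal of 13.5 and lay 14.8 kb before the gene start. A start site of a gene left of the window was nearer to it, at 8932 bp, and no target gene follows from position. The gene with 20 kb on either side thus held 5 thresholded summits, as many as or more than 89.6% of protein-coding genes, whose median was 2. The 200 bases around the summit of highest signal in the cluster are given for that rank by signal. That summit is at base 101, and 1 ETS match in capitals lies near the right end.
Il1r2 intron 5 summit (chr1:40116519-40116718): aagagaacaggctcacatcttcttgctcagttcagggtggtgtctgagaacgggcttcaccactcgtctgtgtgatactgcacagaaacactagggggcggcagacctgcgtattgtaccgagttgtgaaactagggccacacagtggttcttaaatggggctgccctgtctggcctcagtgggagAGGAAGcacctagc

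Il1rl2, the gene for the IL-36 receptor (ENSMUSG00000070942.8, chr1:40324610-40367562), had its only thresholded summit at the promoter. The peak, chr1:40324444-40325487, was 1044 bp wide with 3 summits, a signal of 13.7 and a −log10 p of 76.3 (38.3 and 33.3 in the 2 IDR inputs). It covered 3 of the 4 annotated start sites, and its strongest summit lay 391 bp downstream of a principal start site at 40324627, in intron 1. Repeat-masked bases made up 36% of the 200 bases around that summit. The remaining start site, 593 bp further downstream than the summit, was outside the peak. The RefSeq promoter, which the left part of the peak overlaps, has 1 RUNX match at its start and 1 ETS match near the start site.
Il1rl2 promoter (chr1:40324339-40324638): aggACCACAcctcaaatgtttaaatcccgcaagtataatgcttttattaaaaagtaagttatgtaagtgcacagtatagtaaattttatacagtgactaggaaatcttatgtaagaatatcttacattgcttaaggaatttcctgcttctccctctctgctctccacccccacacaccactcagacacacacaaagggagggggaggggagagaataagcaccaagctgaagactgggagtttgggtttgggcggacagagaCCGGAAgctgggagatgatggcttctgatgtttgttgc

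Il1rl1, the gene for the IL-33 receptor ST2 (ENSMUSG00000026069.15, chr1:40429570-40465415), had no summit of either list anywhere between its start and end. Its 5 annotated start sites lay 25 to 36.1 kb from the nearest thresholded summit, which was the promoter peak of the neighbouring Il18r1. ST2 is known to be transcribed from a distal and a proximal promoter, and neither was in a peak. The nearest weak peak, chr1:40427329-40427682 of the pseudoreplicated list, lay 2.09 kb upstream of the distal start with a signal of 7.30 and a −log10 p of 21.4 (11.6 and 7.82 in the 2 IDR inputs). Both RefSeq promoters of Il1rl1 are given because no peak of either list was called in them. Capitals mark 2 GATA matches in the distal promoter, and 1 GATA match on the minus strand and 1 RUNX match in the proximal promoter.
Il1rl1 distal promoter (chr1:40429320-40429619): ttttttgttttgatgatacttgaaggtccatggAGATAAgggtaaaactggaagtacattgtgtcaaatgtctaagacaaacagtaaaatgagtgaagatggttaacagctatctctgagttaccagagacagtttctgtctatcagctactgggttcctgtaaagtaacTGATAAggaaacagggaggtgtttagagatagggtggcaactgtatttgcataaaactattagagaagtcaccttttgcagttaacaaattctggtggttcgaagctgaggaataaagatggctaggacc
Il1rl1 proximal promoter (chr1:40439379-40439678): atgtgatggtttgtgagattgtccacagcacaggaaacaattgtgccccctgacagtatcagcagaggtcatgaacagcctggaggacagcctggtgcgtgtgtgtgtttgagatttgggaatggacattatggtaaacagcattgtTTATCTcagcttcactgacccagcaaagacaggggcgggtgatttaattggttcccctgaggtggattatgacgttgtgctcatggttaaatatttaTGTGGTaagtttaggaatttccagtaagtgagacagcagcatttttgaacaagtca

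Upstream of Il1rl1, the stretch between Il1rl2 and Il1rl1 held 2 thresholded peaks less than 1 kb apart. The first, chr1:40380142-40380665, had the lowest signal of the cluster (6.27, −log10 p 41.3). The second, chr1:40380944-40381404, had a signal of 8.265 and a −log10 p of 66.8. They lay 49.3 and 48.4 kb upstream of the distal Il1rl1 start, and no target gene follows from position. The same stretch held 7 of the 20 peaks that only the pseudoreplicated list reports, more than any single receptor gene. Their signals ran from 3.47 to 8.76, and 3 of them (8.08, 8.76 and 7.30) exceeded the signal of the first thresholded peak. Their −log10 p values were lower than its value, at 26.8, 28.4 and 21.4. The 7 had −log10 IDR values of 0.477 to 0.825, below the 1.301 that is the lowest in the thresholded list. The second thresholded peak is shown as the intergenic site with most motif matches, with a RUNX match followed by 2 ETS matches, 1 on each strand.
Intergenic summit upstream of Il1rl1 (chr1:40381109-40381308): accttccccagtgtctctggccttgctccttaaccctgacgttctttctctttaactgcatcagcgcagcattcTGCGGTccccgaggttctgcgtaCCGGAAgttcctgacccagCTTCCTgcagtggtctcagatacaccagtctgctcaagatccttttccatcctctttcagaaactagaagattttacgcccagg

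**Figure D2:**
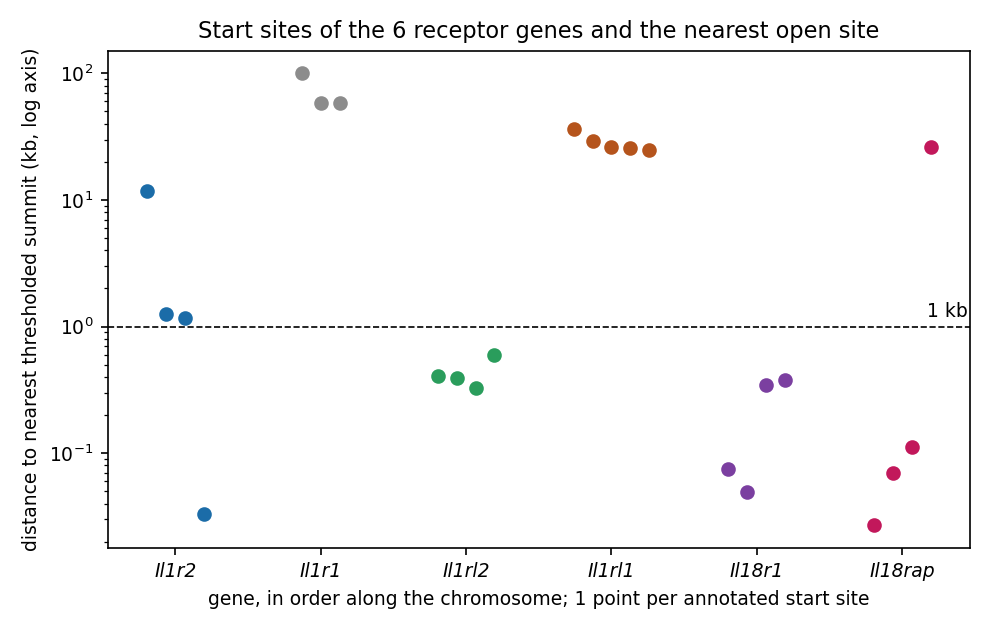
Distance from each annotated start site of the 6 receptor genes to the nearest thresholded summit. Each point is 1 start site, genes run from left to right in chromosomal order, the vertical axis is logarithmic in kb and the dashed line marks 1 kb. Promoter peaks were called on overlap of the whole peak with that distance, so a start site above the line can still have one. Start sites of Il1rl2, Il18r1 and Il18rap lie below the line except 1 of Il18rap, Il1r2 has 1 below it, and every start site of Il1r1 and Il1rl1 is at least 25 kb away.

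Il18r1, the gene for the IL-18-binding chain (ENSMUSG00000026070.15, chr1:40465552-40500854), begins next to the end of Il1rl1 and held a promoter peak followed by 3 intronic peaks. The promoter peak, chr1:40465476-40465972, had a signal of 12.7 and a −log10 p of 117.5 (55.8 and 62.9 in the 2 IDR inputs). Its summit lay 49 bp upstream of a start site at 40465676. The principal start site at 40466006 lay 379 bp downstream of the summit, past the end of the peak. The intronic peaks, in introns 1, 3 and 4, lay 4.09, 9.89 and 13.6 kb from the principal start. Their signals were 6.95, 8.91 and 10.6, and their −log10 p values 64.7, 143 and 150.5. The last 2 ranked above all other cluster peaks outside promoters by −log10 p, although their signals stood above only 24.4% and 34.4% of all thresholded peaks. In the 2 IDR inputs the intron 3 peak had 88.4 and 51.2, and the intron 4 peak 68.7 and 79.0. The RefSeq promoter that contains the summit, at base 257, has 1 RUNX match in capitals. The intron 1 window, shown as the intronic site with most marked matches (4), holds a STAT match, 2 RUNX matches and an ETS match. The intron 4 window holds an ETS match on the minus strand and the only AP-1 match of the 13 peaks.
Il18r1 promoter (chr1:40465371-40465670): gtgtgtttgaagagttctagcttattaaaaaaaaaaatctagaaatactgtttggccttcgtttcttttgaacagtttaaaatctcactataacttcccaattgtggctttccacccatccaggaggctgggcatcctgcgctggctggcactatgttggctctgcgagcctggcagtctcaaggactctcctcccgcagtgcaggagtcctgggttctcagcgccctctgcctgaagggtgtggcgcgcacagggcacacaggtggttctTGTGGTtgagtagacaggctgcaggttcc
Il18r1 intron 1 summit (chr1:40469992-40470191): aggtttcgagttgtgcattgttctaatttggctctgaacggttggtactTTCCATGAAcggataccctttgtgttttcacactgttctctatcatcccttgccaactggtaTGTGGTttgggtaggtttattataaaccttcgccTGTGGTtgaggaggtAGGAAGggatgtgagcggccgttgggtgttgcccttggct
Il18r1 intron 4 summit (chr1:40479540-40479739): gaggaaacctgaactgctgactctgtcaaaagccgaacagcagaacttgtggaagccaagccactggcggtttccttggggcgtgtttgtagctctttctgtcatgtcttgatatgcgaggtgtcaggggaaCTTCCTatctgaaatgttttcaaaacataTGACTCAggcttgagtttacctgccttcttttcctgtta

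Il18rap, the gene for the accessory chain of the IL-18 receptor (ENSMUSG00000026068.11, chr1:40515362-40551705), had a promoter peak and no other thresholded summit in the gene or within 20 kb of it. The peak, chr1:40514824-40515686, had the highest signal of the 4 promoter peaks (13.9) and the lowest −log10 p of them (65.2, with 42.7 and 31.1 in the 2 IDR inputs). Its summit lay 27 bp upstream of the principal start site at 40515362, so it counted as outside the gene although the peak reached into it. The pseudoreplicated list added 3 peaks in the gene, in intron 6, exon 11 and intron 11, with signals of 7.72, 4.17 and 8.56. Repeat-masked bases made up 30% of the 200 bases around that promoter summit. The RefSeq promoter, with its summit at base 224, held more of the marked motifs than any other promoter of the 6 genes, with 3 ETS matches, 1 GATA match and 1 RUNX match on the minus strand. The ETS matches at bases 158 and 173 lie in 1 run of A and G, so they are not separate in kind.
Il18rap promoter (chr1:40515112-40515411): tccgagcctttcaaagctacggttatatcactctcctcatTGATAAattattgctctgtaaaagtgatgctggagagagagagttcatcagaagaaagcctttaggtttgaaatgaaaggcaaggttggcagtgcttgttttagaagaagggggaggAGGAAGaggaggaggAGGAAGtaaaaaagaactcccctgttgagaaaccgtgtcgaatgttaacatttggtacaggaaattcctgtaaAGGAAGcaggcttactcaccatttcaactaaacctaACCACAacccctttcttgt

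As a set, the 13 cluster peaks had a lower median signal than all thresholded peaks, though within counting error. Their signals ran from 6.27 to 17.0 with a median of 10.6, against a median of 13.2 over all thresholded peaks, and 4 of the 13 reached that overall median. The cluster median stood above 34.4% of all thresholded peaks. Its interval from counting error ran from 7.51 to 13.7 in signal (16.2 to 52.6% in rank), which includes the overall median. With 1 pooled sample this rank is a description. The median −log10 p was 76.3, against 115 for all peaks, and the median width 505 bp, against 668 bp. At promoters the 4 cluster peaks had signals of 12.3 to 13.9, against a median of 15.4 over all 13691 promoter peaks. The 4 receptor promoters ranked above 20.7% (Il1r2), 22.9% (Il18r1), 27.9% (Il1rl2) and 28.9% (Il18rap) of the 11537 open protein-coding promoters, each taken at its strongest peak. All 4 therefore ranked below the median of open promoters, close to each other in signal and spread from 65.2 to 193 in −log10 p. By the same measure the regulatory T cell markers ranked lower, from 0.00867% (Tnfrsf18) to 9.65% (Il2ra), with Foxp3 at 9.06%. Cd4 stood at 0.329%, whereas the T cell markers Cd3e, Cd3g and Lat stood at 37.7%, 49.3% and 78.0%. Peaks outside promoters had a median signal of 8.265 in the cluster, against 12.1 over all 20919 such peaks.

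**Figure D3:**
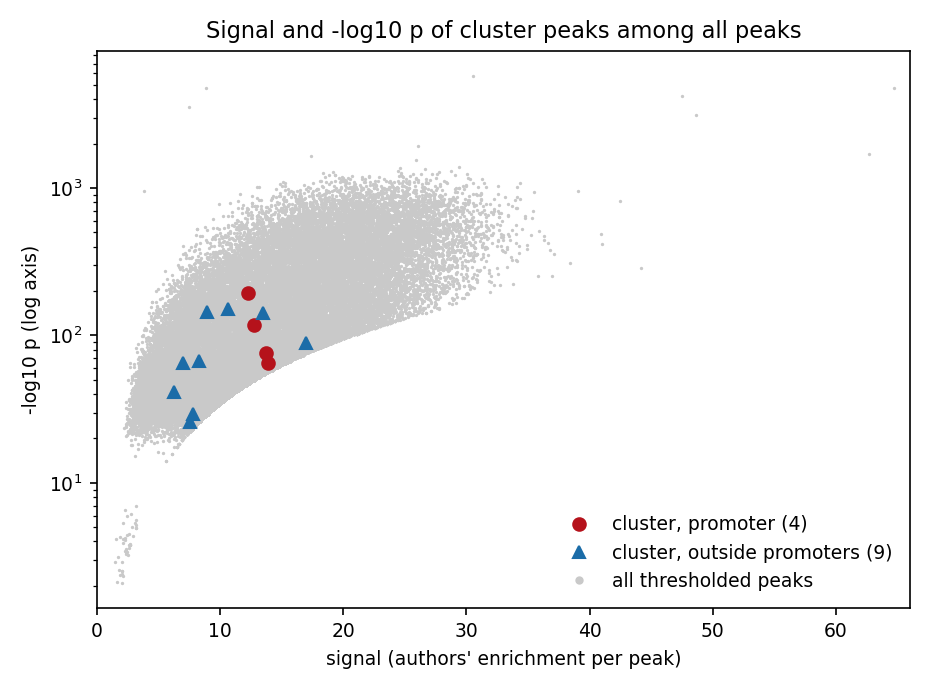
Signal and −log10 p of the cluster peaks among all thresholded peaks. The horizontal axis is the authors' signal per peak and the vertical axis −log10 p on a logarithmic scale, with the 4 promoter peaks of the cluster as red circles, its 9 other peaks as blue triangles and all 34610 peaks in grey. The red circles lie between 12.3 and 13.9 in signal, and the triangles spread from 6.27 to 17.0.

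By position, 4 of the 13 peaks lay at promoters, 6 in introns, 3 between genes and 0 in exons. The share outside promoters was 69.2% (exact Clopper-Pearson 95% interval 38.6 to 90.9%), against 60.4% of all thresholded peaks, so the difference was within counting error. More than 1 summit was listed for 5 of the 13 peaks, against 56.3% of all peaks. The other annotated transcripts of the window were Gm16894, Gm37347, Gm38070 and the pseudogene Gm17970. Of these only Gm16894, which shares the Il1r2 promoter peak, had a thresholded peak within 1 kb of a start site.

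The cluster held fewer open sites per length than 3 other clusters of T cell genes. It held 2.51 thresholded peaks per 100 kb, against 11.1 around Cd28, Ctla4 and Icos, 7.14 around the SLAM family genes, 14.7 around the Gimap genes and 1.27 over all chromosomes. Relative to all chromosomes the ratio was 1.98, with an exact Poisson 95% interval of 1.05 to 3.38 that covers counting error only. Of 5255 consecutive windows of the same length over the genome, 78.1% held fewer than 13 peaks, and the median window held 3. The 3 gene clusters were chosen as groups of T cell genes, with the same 20 kb on either side, and are no random sample.

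The share of weak calls was also high in the cluster. Its 13 thresholded peaks numbered 39.4% of its 33 pseudoreplicated peaks. That ratio of counts was 64.3% around Cd28, Ctla4 and Icos, 67.4% around the SLAM family genes, 70.6% around the Gimap genes and 58.8% over all chromosomes. The 20 peaks found only in the pseudoreplicated list had a median signal of 4.38, against 5.01 for all 24307 such peaks, and a median −log10 p of 20.3, against 16.3. By place, 7 lay between Il1rl2 and Il1rl1, 4 in Il1r2, 3 in Il18rap, 2 each in Il1r1 and Il18r1, and 2 upstream of Il1r2. All 13 thresholded peaks were also in the pseudoreplicated list, each with an overlap of at least 50% of both intervals.

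**Figure D4:**
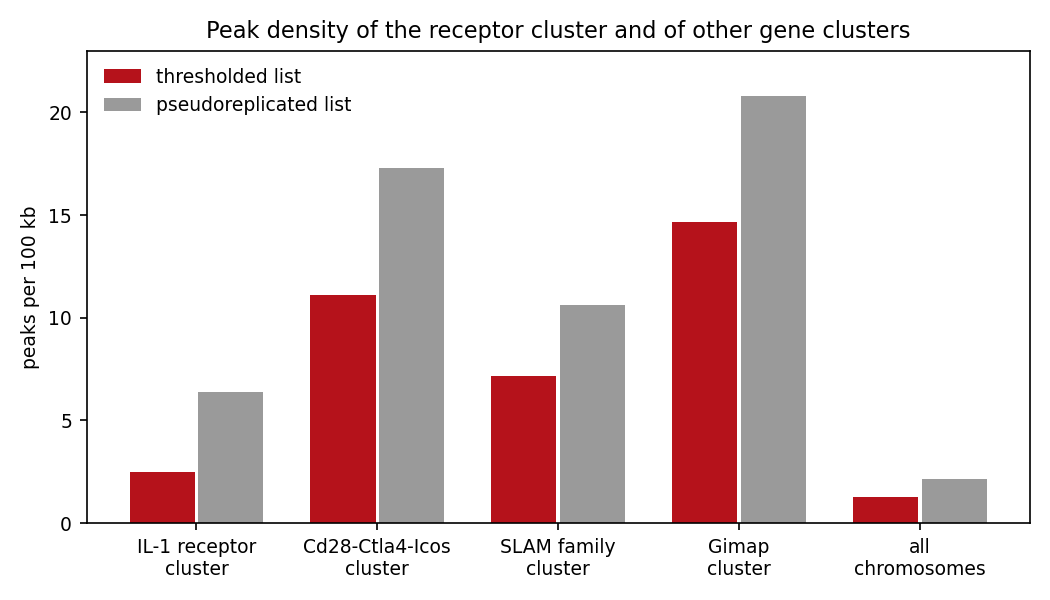
Peaks per 100 kb in the receptor cluster, in 3 other clusters of T cell genes and over all chromosomes. Red bars count thresholded peaks and grey bars pseudoreplicated peaks, and the vertical axis starts at 0. The red bar of the receptor cluster stands at 2.51 and its grey bar at 6.38, below the bars of the other 3 gene clusters and above those of all chromosomes (1.27 and 2.16).

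Over 2 kb, the receptor start sites had low CpG ratios whether or not a peak was called there. At the start sites nearest the promoter summits, the ratio of observed to expected CpG was 0.315 for Il1r2, 0.427 for Il1rl2, 0.231 for Il18r1 and 0.18 for Il18rap. The start sites of the genes without a promoter peak gave 0.223 to 0.368 for Il1r1 and 0.167 to 0.314 for Il1rl1. The ranges of receptor genes with and without a promoter peak thus overlapped. Shorter windows can differ, as the 300 bases of the Il1r2 promoter printed above hold 16 CpG. Around the 5′ end of all protein-coding genes, the median ratio was 0.618 for the 11537 with a promoter peak and 0.223 for the 10401 without. Every receptor start site lay below the median of the genes with a promoter peak.

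Motif matches were counted in the 200 bp centred on each summit, on both strands, and in the same way over all thresholded peaks. Of 13 motif families, ETS (CCGGAA or AGGAAG) matched 8 of the 13 cluster peaks, against 48.4% of all peaks. RUNX (TGTGGT or TGCGGT) matched 5, against 24.9%. At least 1 of these 2 families, both central to T cell gene regulation, was present in 9 of 13, against 61.2%, a share near the background. STAT (TTCNNNGAA), the motif of factors activated by cytokine receptors, matched 4 of 13, against 6.09% of all peaks, and these were the promoters of Il1r2, Il1rl2 and Il18r1 and the intron 1 peak of Il18r1. IRF (GAAANNGAA) also matched 4, against 8.43%. NFAT (TGGAAA) matched 4, all outside promoters, against 14.3%. The GATA family, with the letters AGATAA or TGATAA, matched 2, against 12.9%, at the Il1r2 promoter and the intron 3 peak of Il18r1. With windows of 100 bp, STAT matched 2 peaks, NFAT 1 and GATA 0, and with 400 bp GATA matched 5. A change of 1 peak moves a share by 7.69 percentage points.

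The remaining families matched 1 or 0 cluster peaks. AP-1 (TGANTCA) matched 1 (0 with windows of 100 bp), against 9.62% of all peaks, and TCF/LEF (CTTTGA) 1, against 13.7%. Forkhead (TGTTTAC), the family to which Foxp3 belongs, matched the intron 3 peak of Il18r1 only, against 3.08% of all peaks. KLF/SP (GGGCGG), a GC-rich motif found in 52.3% of all promoter peaks, matched none of the 4 promoter summits in these windows. Its only match was the intron 5 peak of Il1r2 with the highest signal. The printed Il1rl2 promoter holds the letters outside the summit window, and with windows of 400 bp the count was 2. NF-kB (GGGNNTTCC), T-box (GGTGTGA) and CTCF matched 0 of 13, against 6.10%, 3.11% and 5.89%. The ETS, NFAT, NF-kB and STAT letters can share a GGAA core, so 1 stretch may count for more than 1 family. Among 32851 RefSeq promoters of 300 bases, ETS matched 45.2%, RUNX 22.4%, GATA 18.6%, STAT 8.30%, AP-1 7.81% and NF-kB 5.82%. A match is a description of letters and shows no binding.

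**Figure D5:**
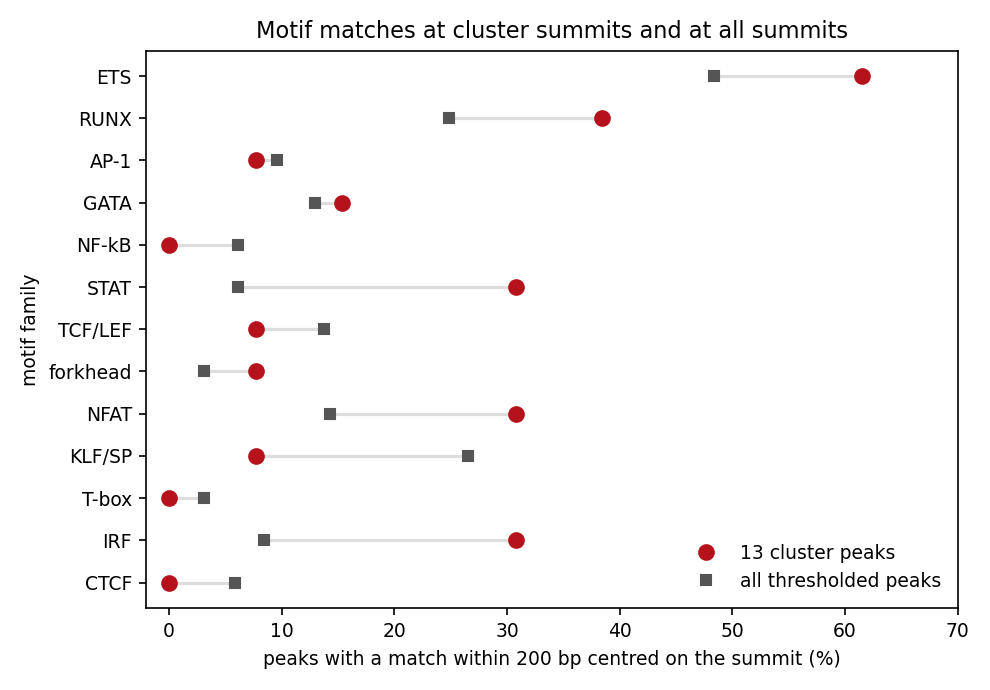
Share of peaks with a motif match in the 200 bp centred on the summit, for the 13 cluster peaks (red circles) and all thresholded peaks (dark squares), with motif families down the page and percent along the horizontal axis. STAT stands at 30.8% in the cluster and 6.09% over all peaks, KLF/SP at 7.69% and 26.5%, and each circle rests on 13 peaks.

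The rest of the pathway was described from 4 lists compiled from general knowledge. Of 11 ligands and antagonists, 2 had a promoter peak, Il18 (signal 24.4) and Il18bp (9.58), which encodes the soluble inhibitor of IL-18. Il1a, Il1b, Il1rn, Il33, Il36a, Il36b, Il36g, Il36rn and Il1f10 had none, against 52.6% of all protein-coding genes with one. These cytokines are known mainly from myeloid and epithelial cells. Of 4 receptor genes outside the cluster, Il1rap, the accessory chain shared by the IL-1, IL-33 and IL-36 receptors, had a promoter peak with a signal of 23.8 and a −log10 p of 767. Sigirr, a receptor that dampens this signalling, had 11.3, and Il1rapl1 and Il1rapl2, known from neurons, had none. The Il1rap promoter ranked above 84.6% of open promoters, against 20.7 to 28.9% for the 4 open promoters of the receptor cluster.

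All 15 signalling genes downstream of the receptors had a promoter peak, against 52.6% of all protein-coding genes. The highest signals were those of Ikbkg (28.1), a subunit of the IkB kinase, and of the receptor-associated kinases Irak2 (24.0) and Irak4 (22.5), and the list median was 19.1, against 17.3 over all open promoters. The adaptor Myd88 had a signal of 20.9. Of 10 genes known as regulators or partners of ST2 in tissue regulatory T cells, 7 had a promoter peak, against the same 52.6%. The highest signals were at Prdm1 (22.98), the growth factor gene Areg (20.9) and Batf (16.0). Pparg, Il10 and Klrg1 had none, although Il10 and Klrg1 had one in the pseudoreplicated list, where the count was 9 of 10, against 57.7% of all protein-coding genes. Gata3, whose product binds GATA motifs, had 5 promoter peaks over all its start sites, and 1 with the 5′ end of the gene record only. The strongest had a signal of 9.06, above 7.73% of open promoters. Il1rl1 itself had none, and a link between these genes was not tested.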

How the data were processed

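Peak lists of 1 sample were used: the IDR-thresholded, pseudoreplicated and ranked lists on mm10, per the file listings called on reads pooled over both libraries. Aligner, caller and versions: not given in the sources used here. The lists hold no read counts, so depth is unknown. The deposited signal is the authors' enrichment per peak, of unstated reference, and the deposited −log10 p and IDR scores (−log10 IDR, −log10 p of 2 inputs) are likewise the authors' values. All served only to describe, rank or filter. Whether the inputs were the libraries is not stated.

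Lines sharing an interval were reduced to 1 peak at the summit of highest signal, in 1-based coordinates. Sequences came from GRCm38.p6 and RefSeq promoters (all 6 genes matched). Python 3.11.15, NumPy 2.4.6, SciPy 1.17.1 and pysam 0.24.0 were used, and functions were tested on simulated data. Members, lists and motifs were chosen with earlier results of these data known. Named were the 6 genes, other genes in the window, each cluster peak, markers and, per pathway list, the highest 3 promoter signals and all without a peak. Myd88 and Gata3 were chosen after their values were seen. No p-value was computed, since peaks are no replicates. Intervals cover counting error only.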

Additional observations from a re-analysis of the deposited data

How the results depend on the processing

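The number of cluster peaks, 13, became 33 with the pseudoreplicated list, 21 with every line counted, 4 when only those at or above the median signal were kept and 5 with at least the median −log10 p. The 4 genes with a promoter peak became 2 under either strictness setting, and 3 with gene 5′ ends only. Peaks with an ETS or RUNX match numbered 18 of 33 with the pseudoreplicated list, against 9 of 13, so their share was lower. With at least the median signal, ligands and antagonists had 1 promoter peak gene in place of 2, outside receptors 1 in place of 2 and ST2 partners 3 in place of 7. With at least the median −log10 p the ligands again had 1. Both strictness settings drop, by construction, every peak below the median of the thresholded list. The share of all protein-coding genes with a promoter peak under them, or with gene 5′ ends only, is not given here. These lower counts are therefore no result about the receptor or pathway genes. The cause was not tested beyond the construction of those lists, which hold more or fewer peaks. The percentile of the median signal, 34.4, was 29.3 to 51.2 under the alternatives. With every line counted it was the highest and changed side, to just above the median of all peaks. The density ratio of 1.98 stayed between 1.22 and 2.95. Windows of 500 and 2500 bp, transcripts limited to protein-coding ones and a summit inside the window left 4 genes with a promoter peak. Of 112 alternative values, 80 stayed within the limit of 1.5 times or counting error and the others moved by more. The window edges moved the count of cluster peaks to 12 and 15. Leaving out a technical replicate was not run, and no paired analysis was possible because the lists pool the libraries. Depth is unknown, so a missing peak means not called in these lists.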

Other observations

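Beyond the right end of the cluster, the distance from the Il18rap promoter summit to the next thresholded summit was 275.4 kb, longer than 95.8% of all such distances, and 4 weak summits of the pseudoreplicated list lay in it. With the 208.4 kb around Il1r1 and the 84.4 kb around Il1rl1, it was 1 of the 3 longest distances next to cluster peaks. These 3 were picked after their values were seen, and the shortest of them was longer than 87.45% of all such distances. Most of the 275.4 kb lies outside the window, since its right end is 219009 bp beyond the window's edge.

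A pair of peaks left out of the thresholded list, chosen after their values were seen, had higher −log10 p than several that were kept. The first, chr1:40055837-40056335 upstream of Il1r2, had a −log10 p of 56.4 and −log10 IDR of 0.861, with −log10 p values of 43.9 and 15.1 in the 2 IDR inputs. The second, chr1:40473725-40474046 in intron 2 of Il18r1, had 54.6 and a −log10 IDR of 1.01, with 19.5 and 42.0 in the inputs. The 3 weakest kept peaks of the cluster had −log10 p values of 25.8, 29.5 and 41.3. At those 3 the inputs were close to each other, with 12.97 and 13.7, 14.3 and 16.1, and 23.2 and 21.6. No cause was tested.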
